A study of Mus musculus with 5 samples.

Results

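The interferon regulatory factor (IRF) genes Irf1, Irf2, Irf3, Irf4, Irf5, Irf7, Irf8 and Irf9 were examined for Runx3 binding and for monomethylation of histone H3 at lysine 4 (H3K4me1) in IL-2-activated natural killer cells (NKC). A peak was counted at a gene when it overlapped the gene or the 20 kb to either side by at least 1 bp, with genes taken from the GENCODE M1 annotation on mm9. These 8 genes, of 22350 protein-coding genes, held 11 of the 11676 Runx3 peaks and 84 of the 34204 H3K4me1 peaks. ChIP-seq had been performed on splenic NKC of ICR mice, which were isolated by negative selection and cultured for 7 days with 1000 units/ml of human IL-2. The methods add a sort for DX5+ cells, and at the end of culture the cells were NKp46+ throughout per the labels and nearly all NKp46+ per the methods. Runx3 was precipitated with a polyclonal antibody in 2 biological replicate libraries, H3K4me1 with a monoclonal antibody in 1 library, and 2 libraries made with rabbit non-immune serum (NIS) were the control. All 5 libraries shared the strain, the culture and the IL-2, so the lists hold no untreated or Runx3-deficient group. Each antibody has 1 list of peak positions without height, score or p-value, and that of Runx3 pools its libraries. The values below therefore have no replicate error and no test. The depth of the pooled sets is stated in the study's methods but cannot be computed from the files.

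IRF proteins bind DNA through a conserved amino-terminal domain that reads repeats of the bases GAAA, as found in the interferon-stimulated response element (ISRE). Irf3 and Irf7 are switched on by the kinases Tbk1 and Ikbke when a cell senses foreign nucleic acid and they start transcription of type I interferon, while Irf9 helps to carry the signal of the interferon receptor to the nucleus. Irf1 is an interferon-inducible activator, Irf2 binds the same sites and can oppose it, and Irf4 and Irf8 are largely restricted to blood cells, where they bind together with PU.1 or Batf proteins. Runx3 is the main Runx protein of cytotoxic lymphocytes and binds the RUNX motif, and H3K4me1 marks enhancers and the borders of active promoters.

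At least 1 Runx3 peak was found at 7 of the 8 IRF genes, against 41.1% of all protein-coding genes, and Irf7 was the gene with none. With flanks of 5 kb it was 4 of 8 genes against 28.8% of all, with 50 kb 8 of 8 against 55.4%, and in the domains of the GREAT rule, described under Irf8, 6 of 8 against 42.1%. Irf8 had 3 Runx3 peaks, Irf2 and Irf4 had 2 each, and Irf1, Irf3, Irf5 and Irf9 had 1 each. H3K4me1 peaks were found at 8 of 8 genes, against 51.1% of all protein-coding genes, but their number ranged widely. Irf8 held 29, Irf2 24 and Irf1 14, which made 67 of the 84, and the other 5 genes shared 17, with 6 at Irf4, 4 at Irf3, 3 at Irf9 and 2 each at Irf5 and Irf7. A Runx3 peak that overlapped H3K4me1 was found at 3 of the 8 genes, namely Irf2, Irf4 and Irf8 (20.5% of all protein-coding genes). A Runx3 peak centred within 1 kb of a transcript start was found at Irf3 and Irf9, 2 of the 8 genes (13.3% of all). The windows differ in length, from 43.8 kb at Irf7 to 148 kb at Irf2, and those of all genes but Irf2 and Irf4 also hold other protein-coding genes, so a peak in a window is not shown to act on the IRF gene.

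**Figure D1:**
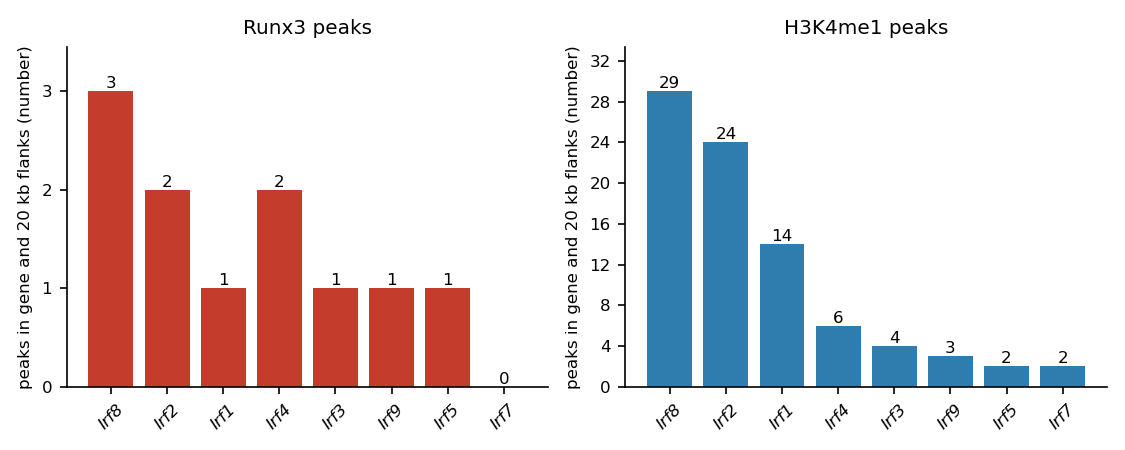
Number of Runx3 peaks (left) and H3K4me1 peaks (right) that overlap each IRF gene or its 20 kb flanks, with genes ordered by their H3K4me1 number. Irf8 had the most of both (3 and 29), and Irf7 had 0 Runx3 peaks and 2 H3K4me1 peaks.

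Of the 11 Runx3 peaks, 4 lay upstream of the gene, 2 were centred in it and 5 lay past its end. Centres of 9 peaks were more than 9 kb from the annotated start of the IRF gene, which is its outermost transcript start. The peaks were 523 to 1225 bp wide (median 805 bp), beside a median of 704 bp over the whole list, and their GC content ranged from 46.4% to 55.8%. No outermost start of the 8 genes lay inside an H3K4me1 peak, a position found at 2.72% of all protein-coding genes. Farther inside, an annotated transcript start of Irf1 and another of Irf8 did lie in an H3K4me1 peak. Inner starts were not counted over all genes. From the outermost starts, H3K4me1 began 327 bp away at Irf1, 657 bp at Irf3, 729 bp at Irf7 and 1329 bp at Irf5. It began 1489 bp away at Irf2, 2531 bp at Irf8, 9731 bp at Irf9 and 17175 bp at Irf4.

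**Figure D2:**
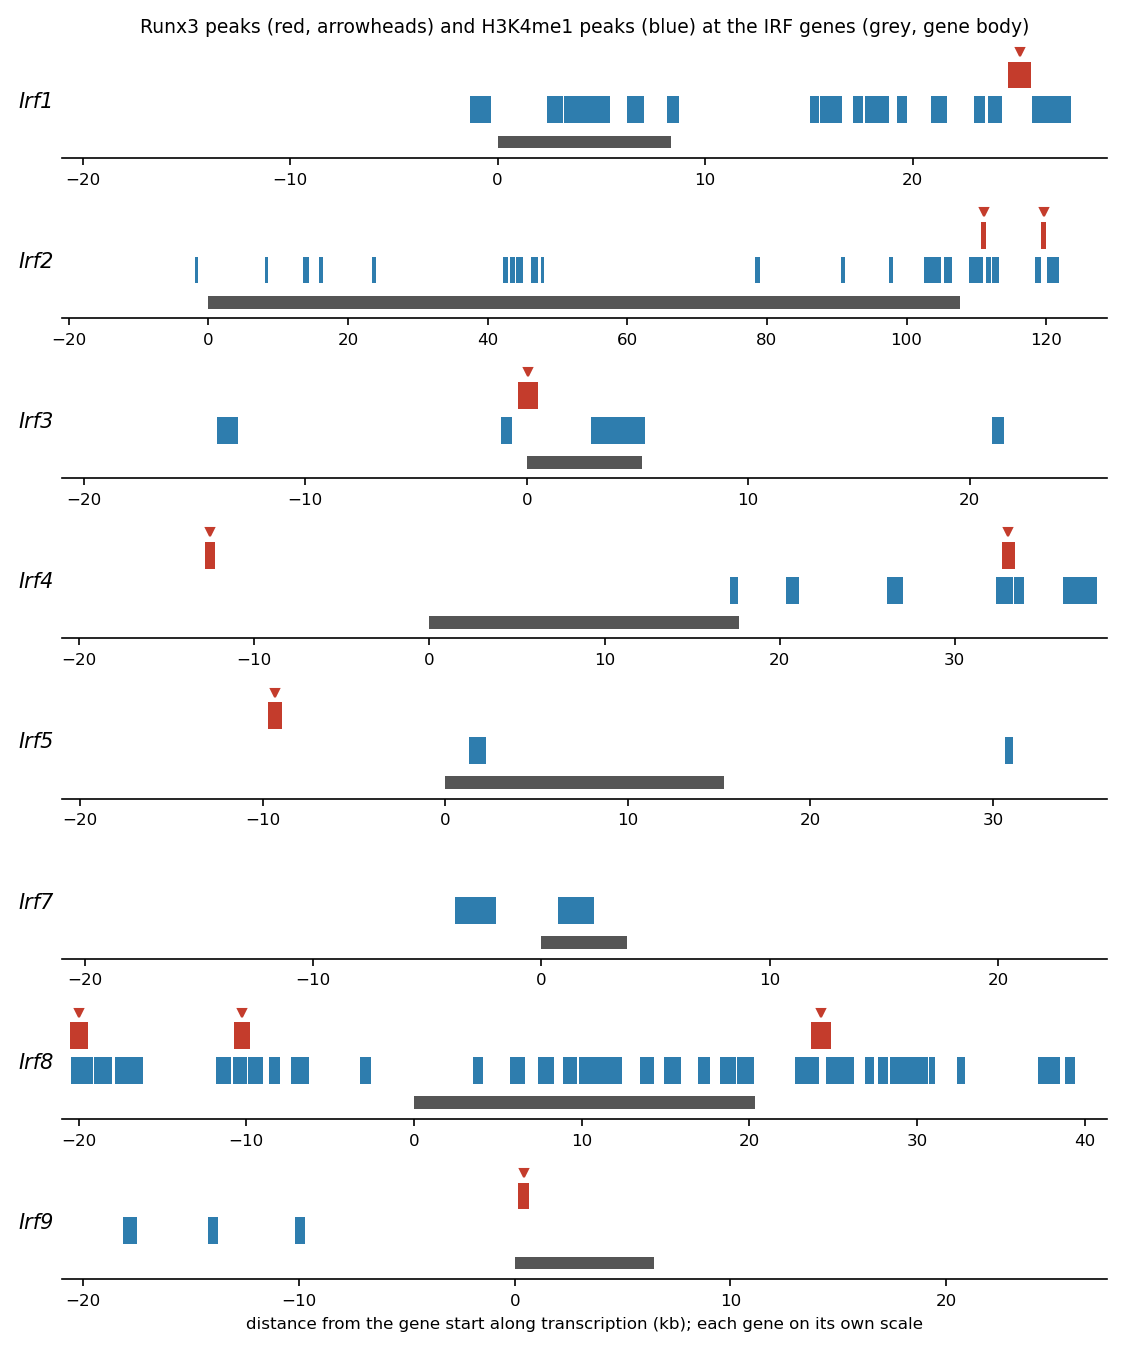
Positions of Runx3 peaks (red, with arrowheads) and H3K4me1 peaks (blue) along each IRF gene (grey bar) and its 20 kb flanks, drawn to scale in kb from the gene start in the direction of transcription, with a separate scale for each gene. Runx3 peaks at Irf3 and Irf9 sit at the gene start, the other 9 lie outside the gene body, and blue blocks are densest at Irf8.

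The Runx3 peaks are shown by a stretch of sequence that carries RUNX motifs, so that the motifs can be compared between genes. The stretches were chosen by their number of motifs and are not shown to be the bases that Runx3 bound. The RUNX motif was searched as TGTGGT, also with C as the third base, as the last base or as both. The AP-1 motif was searched as TGACTCA, also with G as the middle base, and both strands were read for both motifs. For each peak the 150 bases outside annotated UTRs with the most RUNX and AP-1 motifs are printed from the mm9 plus strand, 5′ to 3′, with these motifs in capitals. A motif on the minus strand appears as its reverse complement, such as ACCACA for TGTGGT. At Irf9 the only motif lay in a UTR and 30 bases are given.

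Irf8 encodes a factor that acts in monocytes, dendritic cells and B cells, and its locus was the most heavily marked of the family (chr8:123260258-123280594, plus strand). H3K4me1 peaks covered 46.9% of its window, more than at 99.98% of protein-coding genes, and only 4 of the 22350 genes had a higher coverage. Per 10 kb the window held 4.81 H3K4me1 peaks, against a median of 0.0578 and a mean of 0.309 over all protein-coding genes. The 29 peaks lay on both sides of the start, 10 upstream and 19 downstream, and 10 were centred in the gene. The widest, of 2592 bp, was inside the gene 11.1 kb from its start (chr8:123270092-123272683), and the nearest to the start was chr8:123257058-123257727. When peaks less than 1 kb apart were joined, the 29 became 10 regions, and the widest ran for 8379 bp over 6 peaks, from 22.7 to 31.1 kb past the start. This region was wider than 99.2% of all joined H3K4me1 regions.

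Each of the 3 Runx3 peaks at Irf8 overlapped H3K4me1, as did 48.4% of all Runx3 peaks. Peak 1 (chr8:123239752-123240805, 1054 bp) was centred 19980 bp upstream of the gene, at the edge of the window, and 95.3% of it lay on the H3K4me1 peak chr8:123239802-123241141. Peak 2 (chr8:123249551-123250505, 955 bp) was centred 10.2 kb upstream, and 95.9% of it lay on chr8:123249444-123250324 and chr8:123250364-123251259. Peak 3 (chr8:123283925-123285149, 1225 bp, wider than 95.4% of Runx3 peaks) was centred 3943 bp past the gene end. It overlapped the neighbouring H3K4me1 peaks chr8:123282960-123284432 and chr8:123284854-123286486 by 65.6% of its length, and its centre fell in the 421 bp gap between them. The nearest Irf8 transcript start, inside the gene, was 8428 bp from the centre of peak 3. All 3 centres lie in introns of Gm20388, a long annotated gene that spans Irf8. The nearest transcript start of another protein-coding gene, Cox4i1, was 48.1 kb from peak 1 and 92.3 kb from peak 3. Peak 1 held 2 RUNX motifs, both outside its central 200 bp, and 2 AP-1 motifs. Peaks 2 and 3 held 3 RUNX motifs each and no AP-1 motif, and in peak 3 a TGTGGC stood 6 bp from the centre. The stretches printed are chr8:123240342-123240491, chr8:123250047-123250196 and chr8:123284462-123284611.
Irf8 peak 1: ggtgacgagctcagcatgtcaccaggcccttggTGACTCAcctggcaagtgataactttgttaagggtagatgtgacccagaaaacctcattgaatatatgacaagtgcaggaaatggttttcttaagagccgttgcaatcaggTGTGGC
Irf8 peak 2: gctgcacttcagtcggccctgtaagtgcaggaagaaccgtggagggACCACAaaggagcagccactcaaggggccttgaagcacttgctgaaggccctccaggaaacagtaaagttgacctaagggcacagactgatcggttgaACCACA
Irf8 peak 3: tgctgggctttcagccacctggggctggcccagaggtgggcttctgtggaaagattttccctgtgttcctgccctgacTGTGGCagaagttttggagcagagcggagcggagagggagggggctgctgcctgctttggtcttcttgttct

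With flanks of 50 kb Irf8 held 10 Runx3 peaks and 55 H3K4me1 peaks, the most of the 8 genes. Of the 7 Runx3 peaks added, 1 lay 34.2 kb upstream of the start and 6 lay between 47.8 and 65.1 kb downstream of it, and all 7 overlapped H3K4me1. The GREAT rule gives a gene 5 kb upstream and 1 kb downstream of its start plus up to 1000 kb on each side towards its neighbours. Under it Irf8 received 13 Runx3 peaks and 13 of them overlapped H3K4me1. Over the whole list 48.4% of Runx3 peaks did. H3K4me1 peaks covered 46.9% of the Irf8 window with 20 kb flanks, and the part of this density in the overlap was not tested.

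Irf4 encodes the family member that lymphocytes induce on antigen receptor signalling, and its locus (chr13:30841095-30858796, plus strand) was marked on 1 side of the gene. All 6 of its H3K4me1 peaks lay downstream of the start, from 17.4 to 37.2 kb, and 1 was centred in the gene. They covered 9.09% of the window. The widest was chr13:30877288-30879207 (1920 bp) and the nearest to the start chr13:30858270-30858741. The Runx3 peaks lay on both sides. Peak 1 (chr13:30828285-30828874, 590 bp) was centred 12.5 kb upstream of the gene with the nearest H3K4me1 peaks 44.7 and 29.4 kb away. Peak 2 (chr13:30873777-30874535, 759 bp) was centred 15.4 kb past the gene end, and 92.8% of it lay on the H3K4me1 peaks chr13:30873434-30874410 and chr13:30874466-30875039. Both were intergenic, and the nearest transcript start of another protein-coding gene was 76.6 kb from peak 1 and 122 kb from peak 2 (Dusp22). Both also held AP-1 motifs. In peak 1 a TGACTCA began 30 bp before a TGTGGT that stood 11 bp from the peak centre. Peak 2 held 5 RUNX motifs and 2 AP-1 motifs, 54 and 64 bp from the nearest RUNX motif. The stretches are chr13:30828511-30828660 and chr13:30874283-30874432.
Irf4 peak 1: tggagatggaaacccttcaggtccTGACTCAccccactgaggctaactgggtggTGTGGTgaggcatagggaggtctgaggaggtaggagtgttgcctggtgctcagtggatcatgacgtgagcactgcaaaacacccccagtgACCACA
Irf4 peak 2: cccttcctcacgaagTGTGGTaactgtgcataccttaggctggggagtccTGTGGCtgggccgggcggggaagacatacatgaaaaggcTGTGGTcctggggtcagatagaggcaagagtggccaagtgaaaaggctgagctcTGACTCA

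Irf1 (chr11:53583516-53591876, plus strand) held 14 H3K4me1 peaks, which covered 26.6% of its window, and 120 of the 22350 genes had a higher coverage. They lay 1 upstream and 13 downstream of the start, and 3 were centred in the gene. The widest (chr11:53586691-53588907, 2217 bp) was centred 4.28 kb into the gene, and the nearest to the start was chr11:53582202-53583189. Joining left 7 regions, the widest 4695 bp. Under the GREAT rule Irf1 received 1 H3K4me1 peak in a domain of 50.4 kb, beside 68 in 406 kb for Irf8. The single Runx3 peak (chr11:53608129-53609232, 1104 bp, wider than 91.9% of Runx3 peaks) was centred 25.2 kb from the Irf1 start, 16.8 kb past its end, in an intron of Gm12216 and 697 bp from a transcript start of that gene. It overlapped no H3K4me1 peak, but stood in a gap of 1449 bp between them, with 323 bp free on the left and 22 bp on the right. The peak held 5 RUNX motifs and 7 ETS motifs (AGGAAA on either strand, also with C as the first base, G as the last base or both), the most ETS motifs of the 11 peaks. The stretch printed, chr11:53608567-53608716, holds a pair of TGTGGT motifs on the minus strand.
Irf1 peak 1: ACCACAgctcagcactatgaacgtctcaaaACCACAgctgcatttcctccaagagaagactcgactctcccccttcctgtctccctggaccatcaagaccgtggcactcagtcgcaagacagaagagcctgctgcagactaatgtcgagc

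Irf2 is the longest gene of the family (chr8:47825099-47932812, plus strand, 108 kb) and held 24 H3K4me1 peaks, of which 17 were centred in it. They covered 12.8% of the window and fell in groups. From 40 to 50 kb past the start there were 6, and more than 100 kb past it, around the end of the gene, there were 10. The widest (chr8:47945204-47947004, 1801 bp) was 121 kb from the start, and the nearest to the start was chr8:47823236-47823610. Both Runx3 peaks belonged to the group at the gene end. Peak 1 (chr8:47935774-47936476, 703 bp) was centred 3313 bp past the end and peak 2 (chr8:47944316-47945120, 805 bp) 11.9 kb past it. Peak 1 overlapped the H3K4me1 peak chr8:47935051-47936087 by 44.7% of its length and ended 3 bp short of the next one, with its centre in the gap of 392 bp. Peak 2 overlapped chr8:47943458-47944427 by 13.9% and was centred in a gap of 776 bp. The nearest other protein-coding start, Enpp6, was 136 and 128 kb away. In peak 2 a TGTGGT and a TGTGGC stood 16 bp apart, 5 and 11 bp to either side of the peak centre. The stretches are chr8:47936050-47936199 and chr8:47944643-47944792.
Irf2 peak 1: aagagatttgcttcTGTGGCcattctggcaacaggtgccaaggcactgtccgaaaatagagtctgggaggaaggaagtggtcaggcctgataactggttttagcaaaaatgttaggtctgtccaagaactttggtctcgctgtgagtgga
Irf2 peak 2: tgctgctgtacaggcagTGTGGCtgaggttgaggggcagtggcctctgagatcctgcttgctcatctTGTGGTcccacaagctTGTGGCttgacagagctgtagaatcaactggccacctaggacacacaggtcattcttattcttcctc

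Irf3 and Irf9 were the genes with Runx3 at the start. Irf3 (chr7:52253018-52258218, plus strand) had 1 Runx3 peak (chr7:52252601-52253541, 941 bp), centred 12 bp from an annotated Irf3 transcript start in a UTR exon. A transcript start of Bcl2l12, a Bcl-2 family gene that runs the other way and overlaps the Irf3 start, was 122 bp from the same centre, so the peak cannot be given to either promoter alone. It overlapped no H3K4me1 peak. The nearest, chr7:52251851-52252361, ended 239 bp before it, and the next, chr7:52255928-52258371 (2444 bp), which was the widest at Irf3, began 2386 bp after it and covered the end of the gene. The 4 H3K4me1 peaks covered 9.85% of the window, 2 upstream and 2 downstream of the start. Of the 4 RUNX motifs in the peak, 3 were of the TGCGGT or TGCGGC type, and a TGCGGT began 37 bp upstream of the annotated gene start. The stretch printed, chr7:52252657-52252806, holds the pair farther upstream.
Irf3 peak 1: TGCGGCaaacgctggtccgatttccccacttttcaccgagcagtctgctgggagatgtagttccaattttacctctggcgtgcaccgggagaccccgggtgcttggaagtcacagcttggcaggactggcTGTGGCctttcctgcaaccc

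Irf9 (chr14:56222408-56228867, plus strand) had 1 Runx3 peak (chr14:56222559-56223081), which at 523 bp was the narrowest of the 11 and narrower than all but 13.2% of the list. Its centre lay 412 bp into the gene, in a UTR exon and 2 bp from the start of another annotated Irf9 transcript. The nearest transcript start of the neighbouring Rnf31 was 5598 bp away. H3K4me1 was far from it, at 9881 bp on the left and 37.1 kb on the right. The 3 H3K4me1 peaks of the window all lay upstream, covered 3.34% of it, and were narrow, with the nearest to the start at chr14:56212243-56212677 and the widest at chr14:56204240-56204896 (657 bp). The peak held 1 RUNX motif, a TGTGGC on the minus strand 61 bp from its centre, and 4 ETS motifs. The 30 bases are chr14:56222866-56222895.
Irf9 peak 1: gagtctcacagaGCCACAggcccaaggtgc

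Irf5 encodes a factor that acts below Toll-like receptors and Myd88, and was the member with the least H3K4me1 (chr6:29476625-29491869, plus strand). Its 2 H3K4me1 peaks covered 2.35% of the window, which is still above 70.6% of protein-coding genes. The wider, chr6:29477954-29478844 (891 bp), was also the nearest to the start. The Runx3 peak (chr6:29466897-29467681, 785 bp) was intergenic, 9336 bp upstream of Irf5 and 9337 bp from the start of Kcp, so distance did not separate the 2 genes. No H3K4me1 lay within 10 kb of it, since the nearest began 10272 bp to the right. It held 5 RUNX motifs, of which a TGTGGT stood 6 bp from the centre. The stretch is chr6:29467218-29467367.
Irf5 peak 1: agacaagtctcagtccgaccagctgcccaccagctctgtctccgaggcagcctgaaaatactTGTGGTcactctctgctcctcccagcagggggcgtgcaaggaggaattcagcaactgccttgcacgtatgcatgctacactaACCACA

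Irf7, the interferon-inducible partner of Irf3, had no Runx3 peak in its window (chr7:148448605-148452380, minus strand). Its 2 H3K4me1 peaks stood to either side of the start. The one inside the gene, chr7:148450056-148451651 (1596 bp), was the nearest to the start, and the one upstream, chr7:148454361-148456180 (1820 bp), was centred 2.89 kb before it. They covered 7.80% of the window. The nearest Runx3 peaks were centred 37.8 kb downstream of the start, without H3K4me1, and 36.6 kb upstream, on H3K4me1. The authors kept reads that aligned uniquely, and reads were 40 bases long per the labels. Of the 40-base words of the Irf7 window 93.8% occurred once in the genome, against 95.1% to 98.7% in the other 7 windows, and within 1 kb of the Irf7 start 87.8% did, against 100% at the other 7 starts. The part of alignment in the absence of a peak was not tested.

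**Figure D3:**
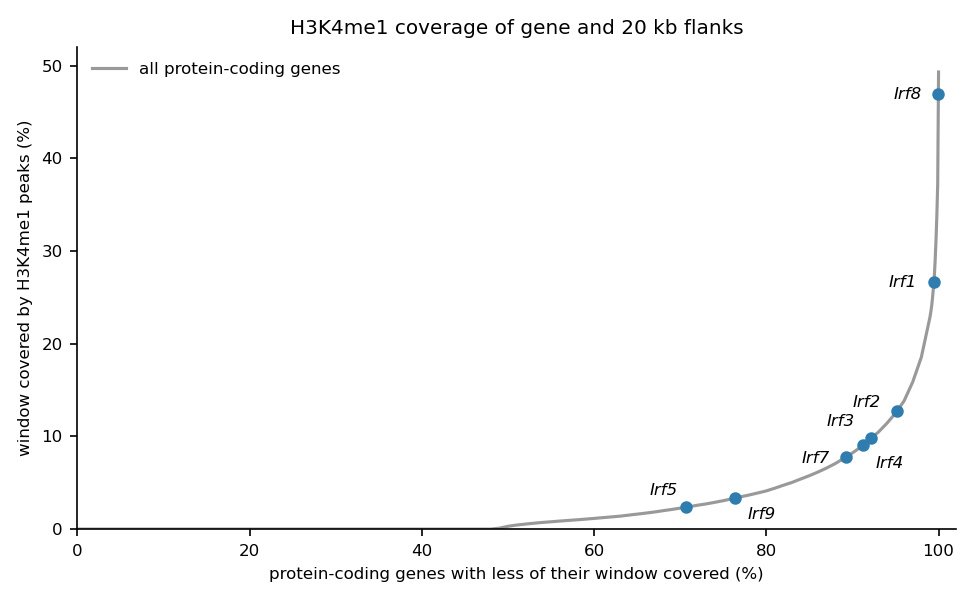
Share of each window (gene and 20 kb flanks) covered by H3K4me1 peaks, against the percentage of protein-coding genes with a lower share; the grey line is the distribution over all 22350 protein-coding genes. Irf8 (46.9%) and Irf1 (26.6%) sit on the steep end of the line, and Irf5 (2.35%) is the lowest of the 8 genes.

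All 8 IRF genes had more of their window covered by H3K4me1 than the median protein-coding gene, which had 0.299%. This median is low because only 51.1% of the genes held any H3K4me1 peak. The mean was 2.60%, and Irf5 lay below it. In order of coverage they were Irf8, Irf1, Irf2, Irf3, Irf4, Irf7, Irf9 and Irf5. With 1 H3K4me1 library there is no spread to say which neighbours in this order differ. Marker genes of NKC were present in both lists, with 9 of 9 holding Runx3 and 9 of 9 H3K4me1 in the same windows. Marker genes of other cells held peaks as well. Over all protein-coding genes the shares were 41.1% for Runx3 and 51.1% for H3K4me1. For T cells 4 of 5 had Runx3 and 4 of 5 had H3K4me1 (Cd8a had neither), for B cells 2 of 5 and 4 of 5 (Ms4a1 had neither), and for myeloid cells 1 of 5 (Csf1r) and 4 of 5 (Lyz2 had neither). After negative selection, the sort for DX5+ cells and culture nearly all cells were NKp46+ per the methods. The part of any other cells in the marking of Irf8 or Irf4 was not tested.

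Around the 11 Runx3 peaks H3K4me1 took different forms. It overlapped 6 of the 11, against 48.4% of all Runx3 peaks, and the centre was covered in 3 of the 11 (28.2% of all), which were peak 2 at Irf4 and peaks 1 and 2 at Irf8. The centre was bare with H3K4me1 within 2 kb on both sides in 4 of the 11 (13.9% of all), namely the Irf1 peak, both Irf2 peaks and peak 3 at Irf8, where gaps ranged from 392 to 1449 bp. At Irf3 H3K4me1 was near on the left alone, and at peak 1 of Irf4, Irf5 and Irf9 there was none within 5 kb of the centre. The share of peaks that overlapped H3K4me1 was thus close to that of the list. With 11 peaks, no difference between the IRF genes and the list is claimed.

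**Figure D4:**
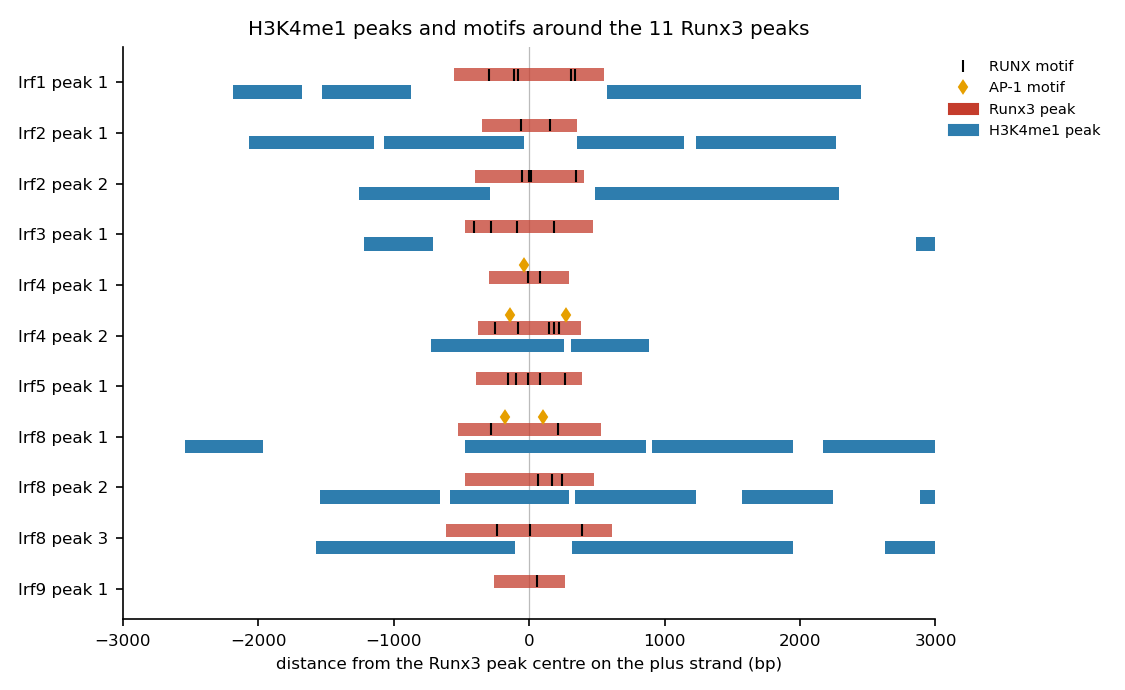
H3K4me1 peaks (blue) within 3000 bp of the centre of each Runx3 peak (red) at the IRF genes, with RUNX motifs as black ticks and AP-1 motifs as orange diamonds; distances are in bp on the plus strand. Blue lies under the centre in 3 peaks, on both sides of a bare centre in 4, on 1 side within 2 kb at Irf3, and is missing in 3.

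Every one of the 11 peaks held a RUNX motif (96.0% of all Runx3 peaks) and 10 of 11 held one in the central 200 bp (76.9% of all), peak 1 of Irf8 being the exception. In total there were 36 RUNX motifs, from 1 to 5 per peak, of which 17 were TGTGGT, 14 TGTGGC, 3 TGCGGT and 2 TGCGGC. Of the 5 motifs with CG in the middle, 3 were in the Irf3 peak, 1 in the Irf1 peak and 1 in the Irf5 peak. In 4 of the 11 peaks a RUNX motif stood within 20 bp of the centre, which was not counted over the whole list. ETS motifs were in 11 of 11 peaks (91.4% of all) and AP-1 motifs in 3 of 11 (26.2% of all), both Irf4 peaks and peak 1 of Irf8. The shares of whole peaks with RUNX, ETS or AP-1 motifs lie near those of the list. These short motifs were also common in H3K4me1 peaks, of which 79.7% held a RUNX motif and 88.3% an ETS motif.

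Motifs read by IRF proteins themselves and by Stat proteins were searched too, on both strands. The ISRE core was taken as GAAANNGAAA, the ETS-IRF composite element (EICE) as GGAANNGAAA and the Stat site (GAS) as TTCNNNGAA. None of the 11 Runx3 peaks held the ISRE core (8.48% of all Runx3 peaks) or the EICE (6.3% of all), and 3 held a GAS (21.6% of all). These were the peaks of Irf5 and Irf9 and peak 2 of Irf8. The absence says that these letters are not in these 11 windows. In the H3K4me1 peaks the ISRE core was found in 6 of 84 (7.7% of all H3K4me1 peaks) and the EICE in 4 of 84 (7.08% of all). The H3K4me1 peak that begins 22 bp from the Runx3 peak at Irf1 held 2 ISRE cores, GAAAATGAAA and GAAAAGGAAA, both on the minus strand and 26.8 and 27.3 kb from the Irf1 start. The upstream H3K4me1 peak of Irf7 held GAAAAAGAAA on the minus strand 2.20 kb before the start. At Irf2 the ISRE core was in 3 and the EICE in 3 H3K4me1 peaks, and 1 of these, which Runx3 peak 1 overlaps, held both. At Irf8 a GAAACAGAAA lay 11.5 kb upstream, and 2 EICE motifs lay in 1 peak 38.1 and 38.4 kb downstream of the start.

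The genes that act around the IRF proteins were counted in the same windows. Among interferon receptors and their JAK and Stat proteins, 7 of 8 held Runx3 and 7 of 8 H3K4me1, beside 41.1% and 51.1% of all protein-coding genes. Jak1, the kinase shared by both interferon receptors, had 28 H3K4me1 and 4 Runx3 peaks, Tyk2 had 12 H3K4me1 peaks and no Runx3 peak, and Jak2 had 1 Runx3 peak and no H3K4me1. In this group 4 genes had Runx3 within 1 kb of a start, namely Ifngr1, Ifngr2, Jak1 and Stat2 (4 of 8, against 13.3% of all protein-coding genes). Among the DNA-binding partners and corepressors of IRF proteins, 6 of 7 held Runx3 and 7 of 7 H3K4me1. Batf3 had 5 Runx3 and 13 H3K4me1 peaks, and Spi1, which encodes PU.1, had 3 and 5 with a Runx3 peak within 1 kb of a start. Irf2bp2 had no Runx3 peak.

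The sensors, adaptors and kinases upstream of Irf3, Irf5 and Irf7 held Runx3 at 8 of 16 and H3K4me1 at 10 of 16. Ticam1 had the most H3K4me1, with 11 peaks and 2 Runx3 peaks, and the kinase gene Tbk1 was the 1 with Runx3 near its start. Tlr3, Tlr4, Tlr7, Ifih1, Traf6 and Irak1 held neither. Of the interferon target genes, which IRF proteins act on, 10 of 26 held Runx3 (41.1% of all protein-coding genes) and 20 of 26 H3K4me1 (51.1% of all), and 0 of 26 had Runx3 within 1 kb of a start (13.3% of all). Psmb8 and Tap1, neighbours in the class II region that overlap in their windows, had 9 H3K4me1 and 2 Runx3 peaks each. Ifit1, Ifit2, Oas1a, Cxcl10 and Trim21 held neither. The Runx3 share of the target genes, 38.5%, was close to that of all protein-coding genes, and that of the IRF genes was 87.5%. The windows within a list can overlap and the lists are short, so these shares are a description.

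**Figure D5:**
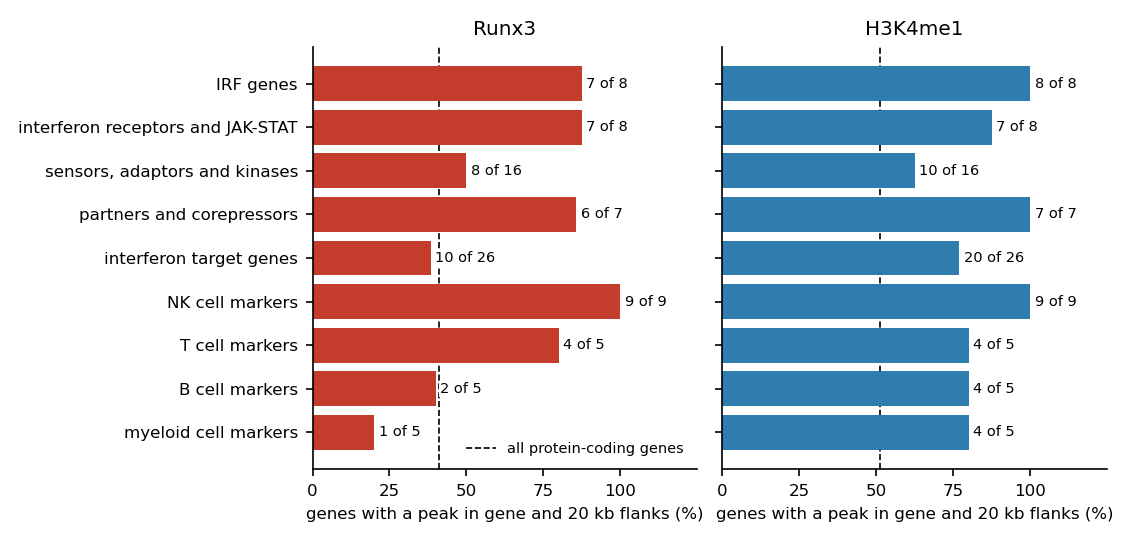
Percentage of genes with a Runx3 peak (left) or an H3K4me1 peak (right) in the gene or its 20 kb flanks, for the IRF genes, 4 lists of genes around them and markers of 4 cell types; labels give the number of genes, and dashed lines the share of all protein-coding genes (41.1% and 51.1%). IRF genes, receptors with JAK-STAT genes, partners, sensors (8 of 16) and markers of NK and T cells are above the line for Runx3. Interferon target genes, at 10 of 26, and markers of B and myeloid cells are below it.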

How the data were processed

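The deposited lists give peak positions in bp on mm9, with starts counted from 0, and no score or other value per peak. Per the methods and the labels, the authors used ELAND on mm9, discarded reads without a unique alignment, pooled libraries of an antibody and ran MACS with NIS as control and the larger dataset scaled down. Labels list 1 H3K4me1 library where the methods speak of repeats. The methods state the depth of the pooled sets and the files hold none.

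Starts were converted to count from 1. Genes, starts and sequence came from GENCODE M1 and the NCBIM37 genome, the same build, on 19 autosomes and chromosome X. Overlap needed 1 bp. Peaks centred up to 1 kb from any transcript start of a gene counted as lying at its start. Distances from the start of an IRF gene were taken from its outermost annotated start. Percentages of all genes or all peaks are descriptions and no test was run. Mappability was the share of 40-base words found once on either strand. All 8 genes, their Runx3 peaks and the H3K4me1 peaks that overlapped Runx3, were widest or were nearest the start are named. The genes and lists were chosen with earlier results of these data known. Nlrc5 is a lincRNA in this annotation, Spi1 is listed there as Sfpi1 and Irf2bpl as 6430527G18Rik. One gene of these lists is not reported here and was left out of its list's counts. Counting and motif steps were tested on simulated data. Alternatives were flanks of 5 and 50 kb, peak centres, joined peaks, GREAT domains, other definitions of the start, a larger overlap and the central 200 bp. Python 3.11.15, numpy 2.4.6, pandas 2.3.3, pysam 0.24.0 and matplotlib 3.10.9 were used.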

Additional observations from a re-analysis of the deposited data

How the results depend on the processing

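The flank and the joining of peaks moved the counts. With 5 kb in place of 20 kb, the Runx3 peaks at the IRF genes fell from 11 to 4, the H3K4me1 peaks from 84 to 47 and the genes with a Runx3 peak from 7 to 4 (Irf2, Irf3, Irf8 and Irf9; 28.8% of all protein-coding genes at this flank). With 50 kb there were 24 Runx3 peaks, 137 H3K4me1 peaks and 8 genes with Runx3 (55.4% of all), since Irf7 then had 2. Joining peaks less than 1 kb apart left 46 H3K4me1 regions and 11 Runx3 peaks. GREAT domains gave Runx3 to 6 of the 8 genes (42.1% of all), without Irf1 and Irf7. Counting a peak by its centre left 11 and 84. The 2 genes with Runx3 at the start stayed 2 under both other definitions. A required overlap of 50% of the Runx3 peak left 4 of the 6 peaks on H3K4me1. No paired analysis was possible because the Runx3 list pools its libraries and H3K4me1 has 1 library per the labels. For the same reasons no replicate could be left out, and no peak height separates strong from weak peaks. A missing peak may lie below the authors' threshold. The methods state the depth of the pooled sets, but the files hold no reads per region to weigh it with.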

Other observations

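Beyond the 20 kb flanks, 13 further Runx3 peaks lay between 20 and 50 kb from the IRF genes, and 10 of them overlapped H3K4me1, against 48.4% of all Runx3 peaks. Irf8, the gene with the densest H3K4me1 of the 8, accounted for 7 of the 13 and for 7 of these 10. Irf4 had 2, centred 64.4 and 65.3 kb past its start, of which the first overlapped H3K4me1. Irf7 had 2, Irf2 had 1 on H3K4me1 129.9 kb from its start, and Irf9 had 1 without H3K4me1 40.0 kb from its start. In H3K4me1 the extension to 50 kb added 7 peaks at Irf7, which then held 9, and none at Irf5, which stayed at 2.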
